A study of Mus musculus with 10 samples.

Results

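The 34 genes described here are a fixed list of T cell, natural killer (NK) cell and innate lymphoid genes, matched by gene symbol in a table of 19175 genes. All 34 have a row. Of these, 33 reached 1 FPKM in 5 or more of the libraries and entered the test. FPKM scales the sequenced fragments of a gene by its length and by the size of the library, so levels of different genes can be compared. The study measured poly(A) RNA of mouse skin in the MC903 model, in which the vitamin D analogue calcipotriol causes an itchy, type 2 dermatitis. There were 5 CKO libraries, from C57BL/6 skin with the genotype label of a basophil VAMP7 conditional knockout. There were 5 Flox libraries, from C57BL/6 skin with the floxed genotype label and the treatment field reading WT. VAMP7 belongs to the SNARE proteins, which fuse vesicles with their target membranes. The series title puts all 10 libraries in the MC903 model, and what MC903 itself did cannot be read from them. The sources used here name no Cre driver, age, MC903 dose or sampling time, and do not say that libraries are separate animals. P-values therefore measure the spread between these libraries, which may be technical.

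T cells recognise antigen through a receptor whose chains are held at the membrane by CD3 proteins, with CD4 or CD8 as co-receptor. The kinases Lck and ZAP-70 pass the signal on. Mouse epidermis also holds dendritic epidermal T cells, which carry a gamma-delta receptor and usually lack CD4 and CD8. The dermis holds regulatory T cells, other helper T cells and innate lymphoid cells. NK cells and cytotoxic T cells kill through perforin and granzymes. The comparison asks how the lymphoid transcripts of inflamed skin stand when basophils carry the knockout.

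None of the 33 tested genes passed the test of CKO against Flox skin, by limma-trend on log2(FPKM + 1) with Benjamini-Hochberg adjustment over all 13186 genes tested and a threshold of 0.05. The same fit called 0.106% of all genes, 0.0455% higher and 0.0607% lower in CKO. At an unadjusted p under 0.05, limma placed 1 of the 33 genes higher in CKO, Pdcd1, and 1 lower, Cd28, against 15.1% of all genes. The CKO and Flox libraries overlapped in FPKM for all 34 genes, while they did not overlap for 4.23% of the genes tested. Of the 33 genes, 12 had a positive and 21 a negative log2 fold change (CKO over Flox), with a median of -0.10, against -0.027 over all genes. The sign was negative for 63.6% of these genes and for 60.5% of all genes. On this scale the 95% interval stayed within 1 log2 unit of 0 for 30 of the 33 genes, the exceptions being Gzma, Klrd1 and Ncr1. Adding 1 makes fold changes of low genes too small, so this is not a bound on their expression.

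CKO replicate 1 stood apart in these genes, and also over all genes, there in both directions. It was the lowest of the 10 libraries for 29 of the 33 tested genes, against 27.5% of all genes tested. It was the highest for 1 of the 33, against 22.6% of all genes. In it, the 33 genes lay a median of -0.73 on the log2 scale from their medians over the 10 libraries, against -0.0058 for all genes. Without that library the median log2 fold change of the 33 genes was 0.083 in place of -0.10. There 24 of them were positive and 9 negative, 0 passed in limma, and 1 had an unadjusted p under 0.05, against 0.197% and 13.6% of all genes. The median was also above 0 without Flox replicate 4, at 0.0087, and with array quality weights, at 0.10. Those weights were lowest for CKO replicate 1, at 0.272, with Flox replicate 5 next at 0.561. The weighted fit is therefore not independent of leaving out CKO replicate 1. No direction is therefore given for the list as a whole. In bulk skin, fewer cells of a type and less RNA per cell cannot be told apart.

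**Figure D1:**
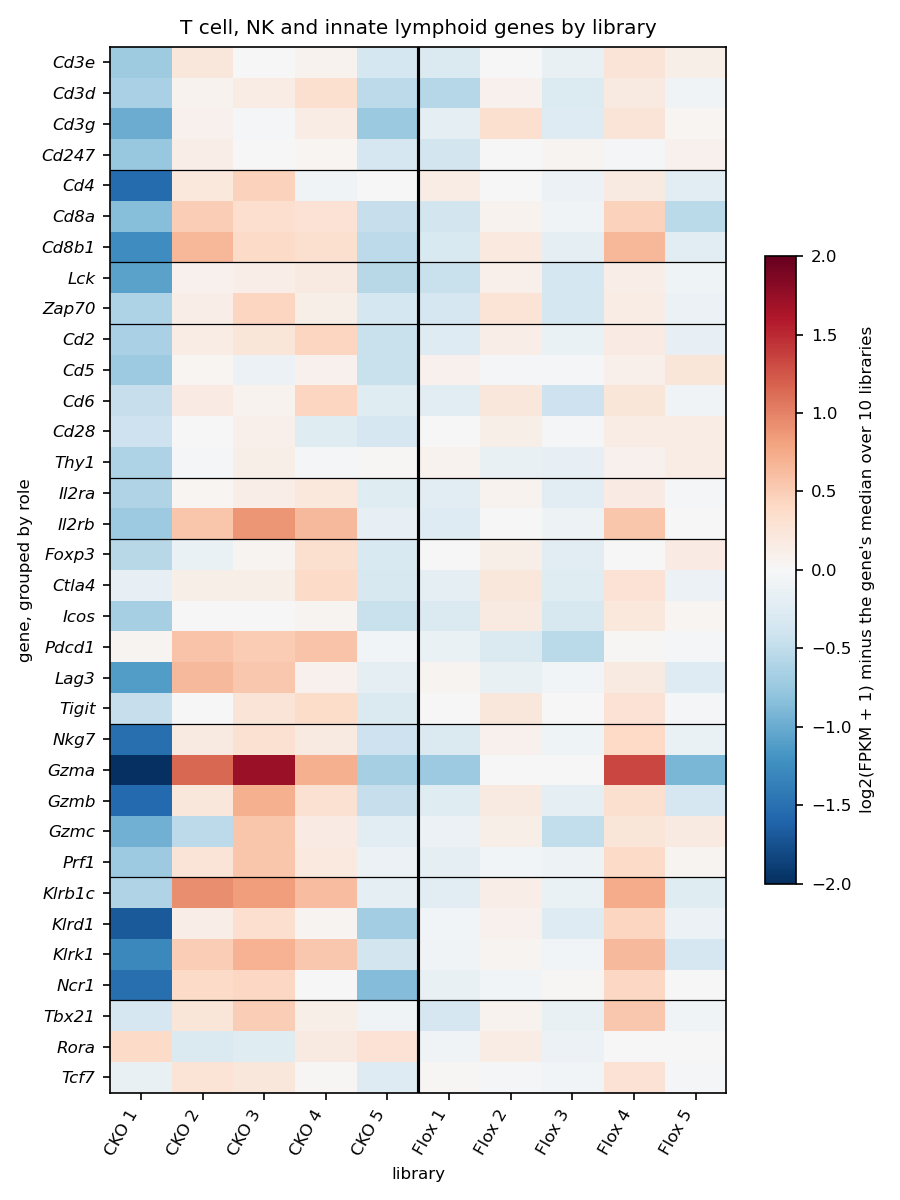
Heat map of the 34 genes (rows, grouped by role) in the 5 CKO libraries and the 5 Flox libraries (columns); colour is log2(FPKM + 1) minus the gene's median over the 10 libraries, with the scale ending at 2 in either direction. CKO replicate 1 is blue in nearly every row, Rora (10.4 FPKM there) and Pdcd1 (2.65 FPKM) being the exceptions; CKO replicate 3 and Flox replicate 4 are red in all the cytotoxic and NK receptor rows.

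The number of reads per library is unknown, since FPKM divides by it. The low values of 586 rare genes had a most frequent log2 ratio between libraries of -0.01 to 0.01. Keratinocyte markers, which define the tissue, had summed levels of 4606 to 6497 FPKM in CKO, against 4528 to 6521 FPKM in Flox. Vamp7 itself ranged over 17.3 to 19.2 FPKM across CKO and 18.1 to 22.5 FPKM across Flox, which in whole skin does not check the labels. Of the 6 basophil markers, 3 were lower in CKO by limma, and 5 were lower without overlap, against 3% of all genes; the 6 summed to 68.2 to 111 FPKM across CKO and 229 to 282 across Flox. Among 5 B cell markers, 4 were under 1 FPKM in every library, with Cd79b the exception.

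Of 10 marker and interferon lists, 6 had their lowest or highest summed level in CKO replicate 1. Of all genes tested, 27.5% were lowest and 22.6% highest in that library, so the count of 6 is not particular to these lists. CKO replicate 1 was the lowest library for the interferon-induced, B cell, plasmacytoid dendritic cell, fibroblast and basophil lists and the highest for skeletal muscle. The interferon-induced and plasmacytoid lists shared both their lowest and their highest library, and may not be independent counts. The 7 interferon-induced genes of a fixed list summed to 15.2 FPKM there, against 291 to 985 in CKO replicates 2 to 5 and 122.5 to 571 across Flox. The 7 skeletal muscle markers reached 933 FPKM in sum in that library, against 239.8 to 557 in CKO replicates 2 to 5 and 148 to 267 across Flox. The 5 B cell markers summed to 1.74 FPKM in it, against 2.86 to 4.47 in CKO replicates 2 to 5 and 3.41 to 4.83 across Flox. None of the markers in these lists was at 0 in all libraries. Their part in the levels of the lymphoid genes was not tested.

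The RefSeq promoter table (build GRCm38.p6) matched 24 of the 34 genes, with 30 gene starts. Below are the 250 bases before the start of 5 of them, 5′ to 3′ in the direction of the gene. Gzma, Gzmb and Prf1 are shown because the cytotoxic genes ranged widely between libraries. Cd3d stands for the CD3 genes, which varied less, and Pdcd1 had the lowest p of the list. Capitals mark 4 motifs searched on both strands, which did not overlap in these 5 windows: an ETS core (GGAAGT), a RUNX core (TGTGGT), a T-box core (GGTGTGA) and the interferon-stimulated response element (GAAA, any 2 bases, GAAA).
Gzma: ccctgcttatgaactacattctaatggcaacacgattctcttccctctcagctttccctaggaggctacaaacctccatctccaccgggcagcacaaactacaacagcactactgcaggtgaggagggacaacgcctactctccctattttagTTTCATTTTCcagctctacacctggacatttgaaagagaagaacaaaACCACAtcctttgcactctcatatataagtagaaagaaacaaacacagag
Gzmb: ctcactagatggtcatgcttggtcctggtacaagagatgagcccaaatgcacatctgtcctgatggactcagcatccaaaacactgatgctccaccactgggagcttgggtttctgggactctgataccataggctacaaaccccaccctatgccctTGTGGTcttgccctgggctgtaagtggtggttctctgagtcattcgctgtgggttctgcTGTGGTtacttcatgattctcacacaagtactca
Prf1: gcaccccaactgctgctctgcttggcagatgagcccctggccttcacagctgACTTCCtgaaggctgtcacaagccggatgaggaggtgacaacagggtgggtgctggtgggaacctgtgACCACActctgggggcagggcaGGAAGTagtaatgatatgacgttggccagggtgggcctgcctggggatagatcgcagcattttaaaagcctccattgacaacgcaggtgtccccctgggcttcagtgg
Cd3d: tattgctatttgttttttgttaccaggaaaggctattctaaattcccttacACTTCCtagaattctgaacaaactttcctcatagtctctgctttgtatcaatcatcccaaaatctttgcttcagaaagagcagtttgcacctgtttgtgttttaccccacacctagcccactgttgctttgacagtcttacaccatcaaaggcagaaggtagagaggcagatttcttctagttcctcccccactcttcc
Pdcd1: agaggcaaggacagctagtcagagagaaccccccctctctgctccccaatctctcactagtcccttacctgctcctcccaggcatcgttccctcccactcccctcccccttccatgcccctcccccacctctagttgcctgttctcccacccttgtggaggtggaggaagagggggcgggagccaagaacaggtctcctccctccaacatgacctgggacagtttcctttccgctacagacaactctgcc

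These windows lie at chr13:113100982-113101231 on the minus strand (Gzma), chr14:56262335-56262584 on the minus strand (Gzmb), chr10:61297586-61297835 on the plus strand (Prf1), chr9:44981536-44981785 on the plus strand (Cd3d) and chr1:94052554-94052803 on the minus strand (Pdcd1). Cd3d and Cd3g are neighbours read in opposite directions, with starts 1355 bases apart. The RUNX letters stood in 12 of the 30 windows (40.0%), against 14.0% of 32851 windows of all genes. These 12 belong to 11 genes, among them the granule genes Gzma, Gzmb, Gzmc, Prf1 and Nkg7 and the NK receptor genes Klrb1c, Klrk1 and Ncr1. Ncr1 has overlapping windows that hold the same RUNX sites, and both were counted. The ETS letters stood in 13 windows (43.3%), against 19.7% of all windows, among them those of Cd3e, Cd3d and Cd247. The interferon element stood in 1 window, that of Gzma (3.33%, against 2.98% of all), and the T-box letters in 1, that of Nkg7 (3.33%, against 3.33% of all). A match of letters is a description of the sequence and not a binding site.

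The CD3 genes encode the signalling chains of the T cell receptor. Cd3e (Entrez 12501) was at 1.99, 4.74, 3.96, 4.14 and 2.86 FPKM in CKO replicates 1 to 5, against 3.03, 3.86, 3.43, 4.86 and 4.33 FPKM in Flox replicates 1 to 5. CKO replicates 1 and 5 lay below every Flox library, and the other 3 lay within the Flox range. The log2 fold change of Cd3e was -0.14 (SE 0.17, limma adjusted p = 0.771). Cd3g, at 7.17, 16.3, 14.8, 17.0 and 8.69 FPKM in CKO and 13.3, 19.25, 12.6, 18.5 and 15.7 in Flox, had the same 2 low libraries. It had the lowest log2 fold change of the 4 CD3 genes, -0.34 (SE 0.23, limma adjusted p = 0.518). Cd3d averaged 8.68 ± 2.73 FPKM in CKO and 8.52 ± 1.91 in Flox (SD, n = 5 each). Cd247, the zeta chain, averaged 5.74 ± 1.56 FPKM in CKO and 6.196 ± 0.837 in Flox.

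The co-receptor Cd4 was the more abundant by level, at 10.95, 39.1, 46.8, 32.2 and 34.02 FPKM in CKO and 37.5, 33.3, 31.0, 38.1 and 28.8 in Flox. Only CKO replicate 1 lay below the Flox range, and CKO replicates 2 and 3 lay above it. For Cd4 the log2 fold change was -0.18 (SE 0.31, limma adjusted p = 0.845), and 0.16 without CKO replicate 1. Cd8a was at 0.610, 3.11, 2.69, 2.55 and 1.11 FPKM in CKO and 1.27, 2.06, 1.78, 3.02 and 1.01 in Flox. Its partner chain Cd8b1 ranged over 0.50 to 4.57 FPKM across CKO and 1.87 to 4.62 across Flox. Both CD8 chains were highest in CKO replicates 2 to 4 and Flox replicate 4, and the groups overlapped throughout. The ratio of Cd4 to Cd8a was 12.6 to 30.6 in CKO and 12.6 to 29.6 in Flox. Mouse macrophages and dendritic cells can carry CD4 too, so this ratio is not a ratio of T cell classes.

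The kinases that act at the receptor had means within 1 SD of each other in the groups. Lck, which phosphorylates the CD3 chains, averaged 6.19 ± 2.39 FPKM in CKO and 6.50 ± 1.33 in Flox (SD, n = 5 each). Zap70, which docks on the phosphorylated chains, averaged 2.59 ± 0.996 FPKM in CKO and 2.47 ± 0.683 in Flox. Both were lowest in CKO replicate 1, at 2.85 and 1.36 FPKM. Their log2 fold changes were -0.12 (SE 0.24) and 0.022 (SE 0.20), and neither passed.

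Among the 5 surface and co-stimulatory genes (Cd2, Cd5, Cd6, Cd28 and Thy1), Cd5 and Cd28 had the lowest log2 fold changes, without passing. Cd28, the main co-stimulatory receptor, was at 1.34, 2.09, 2.34, 1.62 and 1.47 FPKM in CKO and 2.14, 2.38, 2.07, 2.44 and 2.46 in Flox. CKO replicates 2 and 3 reached into the Flox range and the other 3 lay below it. The log2 fold change was -0.26 (SE 0.10, 95% interval -0.48 to -0.042, limma adjusted p = 0.264), and -0.20 without CKO replicate 1. Cd5, an inhibitory receptor tuned to receptor signal strength, was at 1.39, 3.06, 2.64, 3.20 and 1.92 FPKM in CKO and 3.19, 2.88, 2.88, 3.26 and 3.67 in Flox. CKO replicates 2 and 4 lay within the Flox range and the other 3 below it, with a log2 fold change of -0.31 (SE 0.15, limma adjusted p = 0.355). Cd2, an adhesion receptor, averaged 15.2 ± 4.90 FPKM in CKO and 14.7 ± 2.07 in Flox. Cd6, a relative of Cd5, averaged 2.34 ± 0.804 FPKM in CKO and 2.21 ± 0.632 in Flox.

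Thy1, a membrane glycoprotein of mouse T cells and innate lymphoid cells, had the highest level of the list. It was at 77.05, 117, 129, 115 and 120.3 FPKM in CKO and 124.5, 107, 106, 127 and 131.5 in Flox. CKO replicate 1 lay below all the other libraries, which overlapped, and the log2 fold change was -0.11 (SE 0.13, limma adjusted p = 0.758). Mouse fibroblasts also express Thy1, so its level is not a measure of T cells. The summed level of 6 fibroblast markers was 3179 FPKM in CKO replicate 1, against 3660 to 4419 in CKO replicates 2 to 5 and 3691 to 4431 across Flox: both Thy1 and these markers were lowest in that library.

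**Figure D2:**
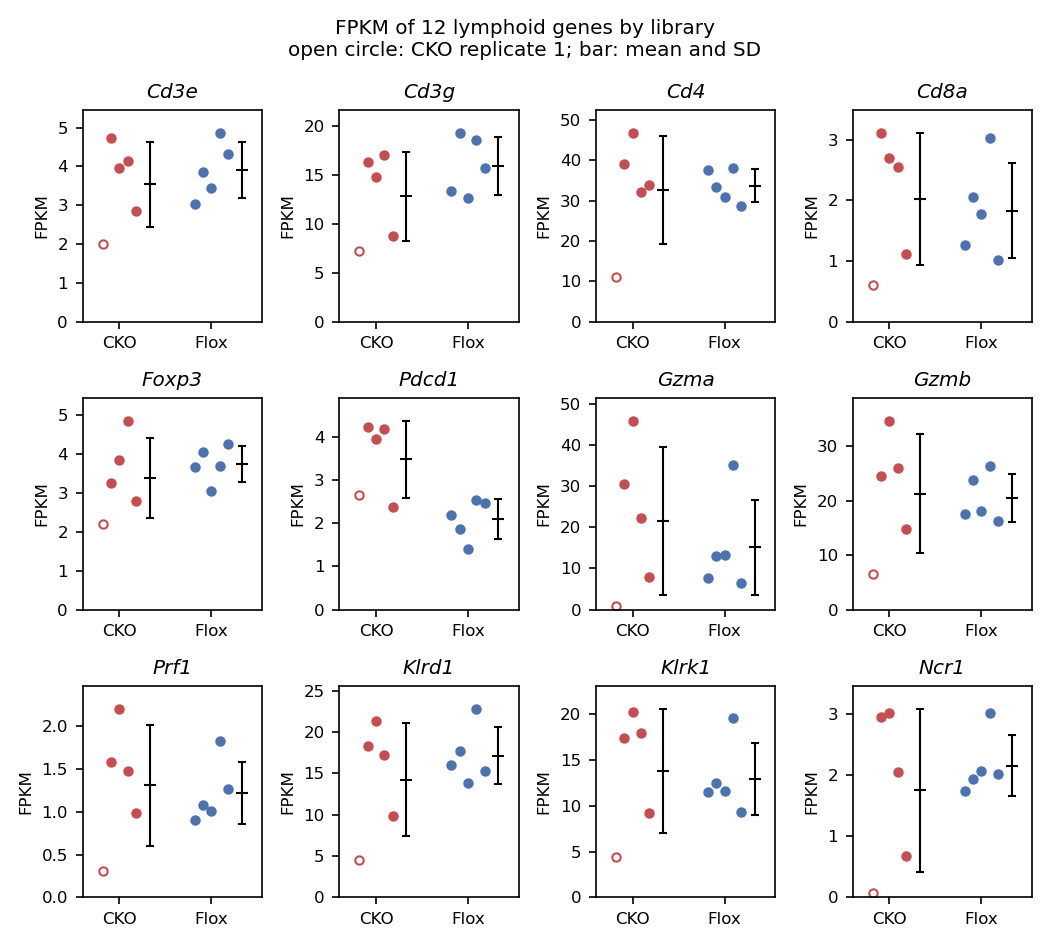
FPKM of 12 of the genes in each library, CKO left and Flox right; points are libraries (the open circle is CKO replicate 1) and the bar beside them is the mean with its SD (n = 5). The groups overlap in all 12 panels and Pdcd1 overlaps only through CKO replicate 5, with CKO at 2.36 to 4.21 FPKM against Flox at 1.40 to 2.54.

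The receptor for interleukin-2 is shared in part with interleukin-15. Il2ra, the high-affinity chain CD25 of regulatory and activated T cells, averaged 4.33 ± 1.14 FPKM in CKO and 4.42 ± 0.625 in Flox. Il2rb, the chain used by both cytokines and abundant on NK cells, was at 3.95, 11.02, 14.2, 11.9 and 6.36 FPKM in CKO and 5.88, 7.18, 6.62, 11.02 and 7.23 in Flox. CKO replicates 3 and 4 lay above every Flox library and CKO replicate 1 below, and the log2 fold change was 0.20 (SE 0.29, limma adjusted p = 0.795). Without CKO replicate 1 it was 0.44 (limma adjusted p = 0.388).

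Pdcd1 had the lowest p of the list. It encodes PD-1, an inhibitory receptor that T cells raise on activation. It was at 2.65, 4.21, 3.95, 4.18 and 2.36 FPKM in CKO replicates 1 to 5, against 2.18, 1.87, 1.40, 2.54 and 2.46 FPKM in Flox replicates 1 to 5. CKO replicates 1 to 4 lay above every Flox library, and CKO replicate 5 lay within the Flox range. The mean was 3.47 ± 0.893 FPKM in CKO and 2.09 ± 0.467 in Flox (SD, n = 5 each), 1.66 times as high in CKO. The log2 fold change of 0.52 (SE 0.15, 95% interval 0.18 to 0.86) did not pass (limma adjusted p = 0.177). Across the alternatives tried, its log2 fold change was 0.43 to 0.69 and the adjusted p 0.0922 to 0.351.

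Levels were also set against Cd3e as a measure of T cell RNA in each library. Divided by the Cd3e level of the same library, Pdcd1 was at 1.33, 0.888, 0.997, 1.01 and 0.825 in CKO and 0.719, 0.484, 0.408, 0.523 and 0.568 in Flox. These ratios did not overlap between the groups, which was so for 1 of 32 tested genes of the list and for 0.356% of all genes set against Cd3e (0.197% higher in CKO, 0.159% lower). The choice of Cd3e as the divisor was made after the values were seen, and the ratios were not tested. Division adds the spread of Cd3e to every gene, and the share over all genes was 4.23% in FPKM, so 0.356% is no like yardstick. Relative to Cd3d, Pdcd1 overlapped between the groups. CKO replicate 4 had Pdcd1 at 4.18 and Cd3d at 11.7 FPKM, and Flox replicate 1 had them at 2.18 and 5.87. Against Cd3g or Cd247, Pdcd1 did not overlap between the groups, and none of these ratios was tested. Among the other lymphoid genes below, Ikzf2 and Klrg1 did not overlap either, both being lower in CKO relative to Cd3e. Klrg1 was named after its values were seen. This inhibitory receptor of differentiated T and NK cells and innate lymphoid cells stood at 0.633 to 0.749 times the Cd3e level in CKO and 0.831 to 1.41 times in Flox.

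The other 5 genes of regulatory T cells and checkpoints had log2 fold changes of -0.18 to 0.039. Foxp3, the transcription factor of regulatory T cells, was at 2.19, 3.25, 3.85, 4.86 and 2.80 FPKM in CKO and 3.68, 4.07, 3.04, 3.69 and 4.26 in Flox. CKO replicates 1 and 5 lay below the Flox range and CKO replicate 4 above it (log2 fold change -0.14, SE 0.15, limma adjusted p = 0.714). Ctla4, the inhibitory counterpart of Cd28, averaged 10.9 ± 2.26 FPKM in CKO and 10.5 ± 1.99 in Flox, the highest level of this group. Icos, a co-stimulatory relative of Cd28, averaged 6.87 ± 1.65 FPKM in CKO and 7.84 ± 1.52 in Flox. Tigit, an inhibitory receptor of T and NK cells, averaged 4.96 ± 1.42 FPKM in CKO and 5.37 ± 0.684 in Flox. Lag3, an inhibitory receptor related to CD4, spread most of the 5, with 1.09 to 6.15 FPKM in CKO libraries and 2.81 to 4.15 FPKM in Flox libraries.

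Cytotoxic genes spread widely between libraries. The highest and lowest libraries differed 4.74-fold for Nkg7 and 50.3-fold for Gzma, the ends of the 5 genes, against 2.11-fold to 2.68-fold for the 4 CD3 genes. Without CKO replicate 1 these spreads were 1.85-fold for Nkg7, 2.34-fold for Gzmb and 7.01-fold for Gzma, against 1.51-fold to 2.22-fold for the CD3 genes, so Nkg7 then lay within their range. Gzma, the tryptase-like granzyme A of NK and CD8 T cells, was at 0.910, 30.6, 45.8, 22.1 and 7.96 FPKM in CKO and 7.55, 13.1, 13.3, 35.0 and 6.53 in Flox. The widest gap lay within CKO, between replicates 1 and 3, and Flox replicate 4 was far above the other Flox libraries. Its log2 fold change was 0.065 (SE 0.80, 95% interval -1.69 to 1.82), so these libraries set only wide limits on a difference in Gzma. It was 0.79 without CKO replicate 1 and -0.36 without CKO replicate 3.

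Gzmb, the caspase-activating granzyme B, was at 6.46, 24.6, 34.7, 26.05 and 14.8 FPKM in CKO and 17.5, 23.9, 18.2, 26.3 and 16.2 in Flox. CKO replicates 1 and 5 lay below the Flox range and CKO replicate 3 above it. The ratio of Gzma to Gzmb was 0.141 to 1.32 in CKO and 0.402 to 1.33 in Flox, so the 2 granzymes were not in a fixed proportion. Gzmc, a neighbour and close relative of Gzmb, was low, with 0.270 to 2.62 FPKM in CKO libraries and 0.760 to 1.94 FPKM in Flox libraries. The treatment of reads that fit several paralogs is unknown, so values of granzymes and of the Klr receptors are uncertain to that extent. Prf1, the pore-forming perforin, was at 0.310, 1.58, 2.20, 1.47 and 0.990 FPKM in CKO and 0.900, 1.08, 1.01, 1.82 and 1.26 in Flox. Nkg7, a protein of cytotoxic granules, averaged 8.83 ± 3.94 FPKM in CKO and 9.76 ± 2.02 in Flox. None of the 5 passed, with log2 fold changes of -0.24 to 0.065.

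**Figure D3:**
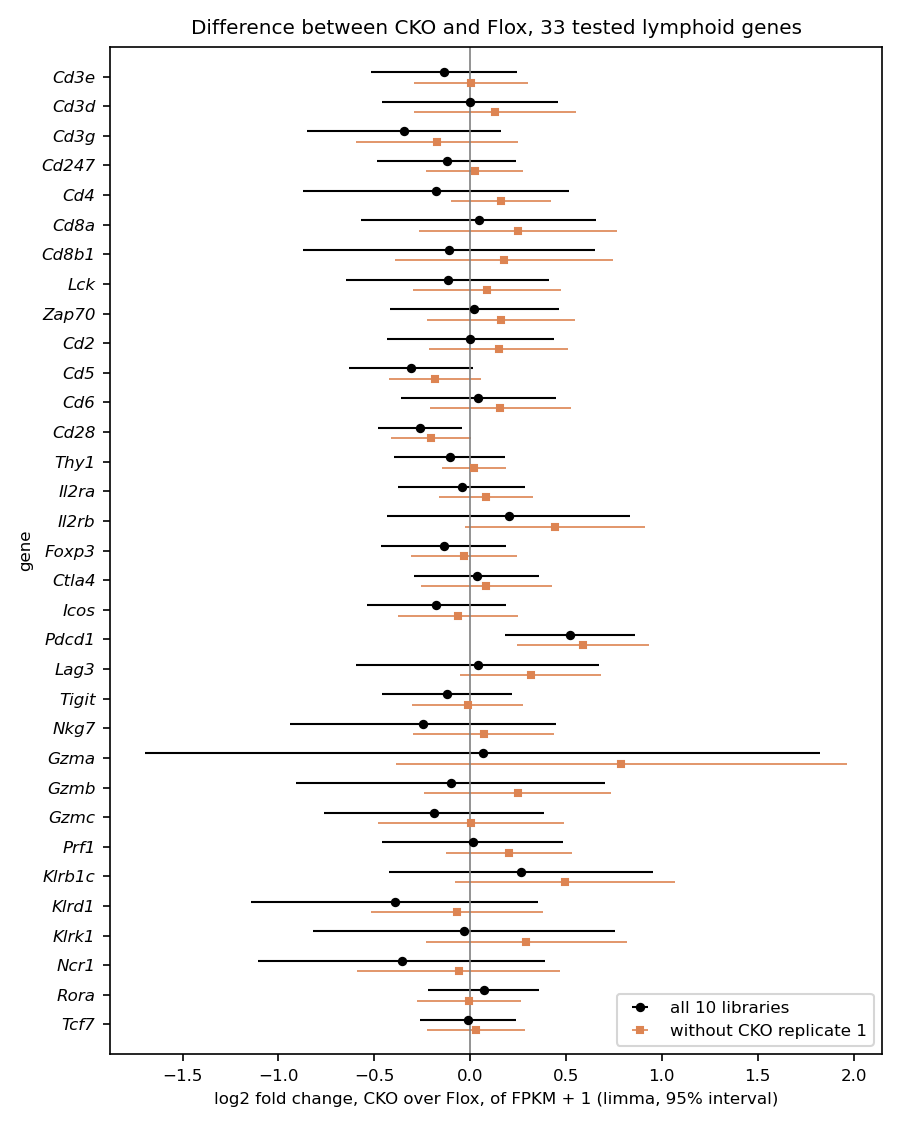
Log2 fold change (CKO over Flox, limma on log2(FPKM + 1)) of the 33 tested genes with its 95% interval, for all 10 libraries (black circles) and without CKO replicate 1 (orange squares). With all libraries only the intervals of Pdcd1 (0.18 to 0.86) and Cd28 (-0.48 to -0.042) leave out 0, before adjustment; without CKO replicate 1 most genes move to the right.

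The 4 NK receptor genes were also lowest in CKO replicate 1. Klrd1, the CD94 partner of NKG2 receptors, was at 4.53, 18.3, 21.3, 17.2 and 9.86 FPKM in CKO and 16.0, 17.7, 13.8, 22.8 and 15.3 in Flox. CKO replicates 1 and 5 lay below every Flox library, and the log2 fold change was -0.39 (SE 0.34, limma adjusted p = 0.633). Klrk1, the activating receptor NKG2D, was at 4.37, 17.5, 20.3, 17.95 and 9.18 FPKM in CKO and 11.5, 12.5, 11.7, 19.6 and 9.35 in Flox. CKO replicate 3 exceeded every Flox library, and CKO replicates 1 and 5 lay below them all. Klrb1c, the NK1.1 antigen, ranged over 0.690 to 3.88 FPKM across CKO and 1.17 to 3.26 across Flox (log2 fold change 0.27, SE 0.31).

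Ncr1, which encodes NKp46 and marks NK cells and some innate lymphoid cells, was lowest in CKO replicate 1. It was at 0.0700, 2.94, 3.02, 2.05 and 0.670 FPKM in CKO and 1.74, 1.93, 2.07, 3.02 and 2.01 in Flox. CKO replicates 1 and 5 lay below the Flox range, and replicates 2 and 3 were near the highest Flox library. The log2 fold change was -0.36 (SE 0.34, 95% interval -1.11 to 0.39, limma adjusted p = 0.669), and -0.86 with a pseudocount of 0.1, since low values weigh more there.

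The 9 cytotoxic and NK receptor genes lay a median of -1.5 on the log2 scale from their medians over the 10 libraries in CKO replicate 1. The same value was -0.65 for the 11 CD3, kinase and surface genes and -0.51 for the 6 regulatory and checkpoint genes. CKO replicate 5 was next lowest in all 3 groups, at -0.41, -0.35 and -0.29. CKO replicate 3 was the highest library for the cytotoxic and NK genes, at 0.56, and Flox replicate 4 was next, at 0.41. The plasmacytoid dendritic cell list (Siglech, Bst2, Irf7 and Ccr9) had a summed level of 44.95 FPKM in CKO replicate 1. It was at 214 to 541 in CKO replicates 2 to 5 and 119.9 to 308 across Flox. Its lowest and highest libraries were those of the interferon-induced list. The sum may not be independent of that list, and is not taken as a measure of those cells alone. Their part was not tested.

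**Figure D4:**
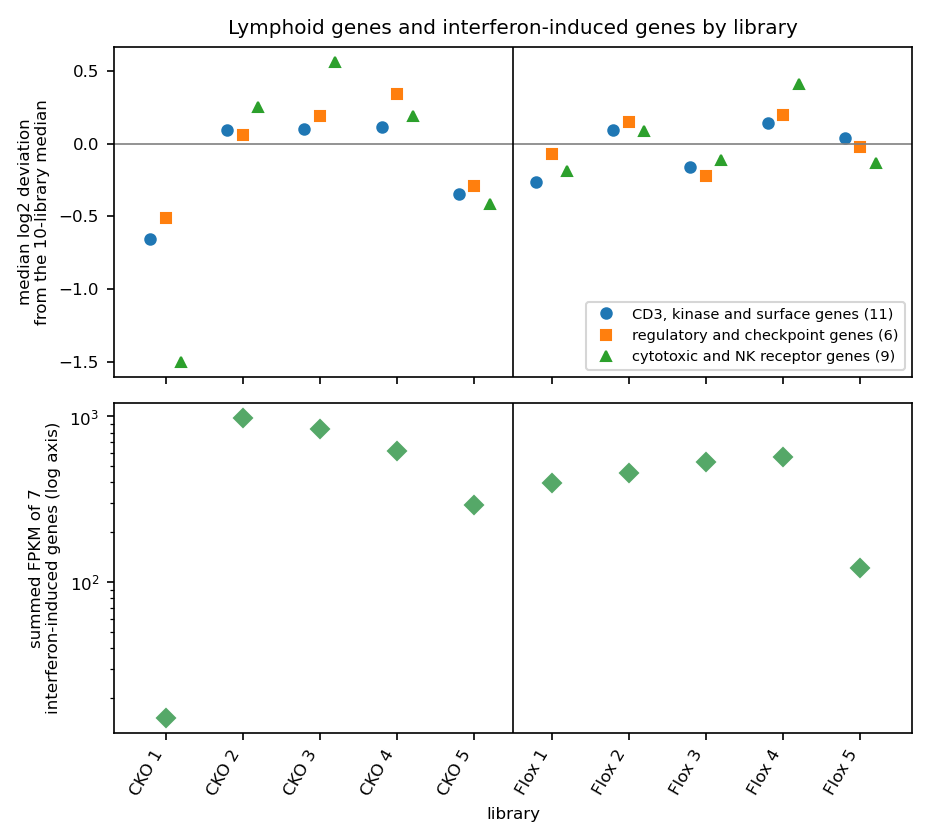
Top: median log2 deviation of 3 groups of the genes from their medians over 10 libraries, in each library, CKO left and Flox right. Bottom: summed FPKM of 7 interferon-induced genes on a log axis. CKO replicate 1 is lowest in all 4 measures, at -0.65, -0.51 and -1.5 and at 15.2 FPKM; Flox replicate 5, with the next lowest interferon sum (122.5 FPKM), lies at 0.041, -0.022 and -0.13 in the top panel.

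The list holds 3 transcription factors. Tbx21, which encodes T-bet, the factor of type 1 lymphocytes and NK cells, was too low for the test. It was at 0.110, 0.660, 0.980, 0.53 and 0.340 FPKM in CKO and 0.110, 0.480, 0.270, 1.05 and 0.340 in Flox. With no filter on low values its log2 fold change was 0.077 (SE 0.18, limma adjusted p = 0.901). Tcf7, which encodes TCF-1 of naive and memory-like T cells, averaged 5.63 ± 1.06 FPKM in CKO and 5.64 ± 0.697 in Flox, and had the narrowest range of the list, 1.56-fold. Rora, needed by type 2 innate lymphoid cells and also expressed by keratinocytes, was at 10.4, 6.2, 6.48, 8.98 and 9.81 FPKM in CKO and 7.38, 8.82, 7.12, 7.77 and 7.86 in Flox. It was the single tested gene of the list that was highest in CKO replicate 1.

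Of 84 other genes chosen for lymphoid cells, in 5 lists, 72 were tested. A further 6 genes of the lists, among them Trdc of the gamma-delta receptor, are not analysed here. Several of the 72 are not confined to lymphoid cells, so the medians below are not a measure of those cells alone. In the cytotoxic and NK list, Fcer1g and Tyrobp averaged 316 and 619 FPKM in CKO, against 3.54 for Cd3e. None of the 72 passed in limma, while 5 were higher and 9 lower in CKO at an unadjusted p under 0.05, against 4.78% and 10.3% of all genes in those directions. Their median log2 fold change was -0.13, against -0.027 over all genes, and 53 of 72 were negative. Without CKO replicate 1 the median of the 72 was -0.0032, and with array quality weights -0.0085. By list, the medians were -0.16 for 20 T cell signalling genes and -0.15 for 18 helper, regulatory and homing genes. They were -0.095 for 16 cytotoxic and NK genes, -0.057 for 9 gamma-delta and innate genes and -0.13 for 9 lineage transcription factors. Without CKO replicate 1 the same 5 medians were -0.042, -0.063, 0.098, 0.049 and -0.048, so the sign turned for the cytotoxic and the gamma-delta lists.

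Ptpn22 came nearest to passing. It encodes a phosphatase that acts on Lck and other kinases to damp receptor signalling. It was at 7.05, 7.68, 9.58, 9.24 and 9.45 FPKM in CKO and 5.38, 5.22, 4.74, 6.97 and 5.34 in Flox. Every CKO library lay above every Flox library, which was so for 2 of the 72 genes, Ptpn22 and Id2, and for 1.24% of all genes. The log2 fold change was 0.56 (SE 0.10, limma adjusted p = 0.0672). It passed without CKO replicate 1 (0.62, adjusted p = 0.0454) and with array quality weights, which count that library least (0.64, adjusted p = 0.0255). Across the alternatives tried, the adjusted p ranged over 0.0255 to 0.182.

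Id2, a regulator needed by innate lymphoid cells and expressed in many skin cells, ranged over 90.5 to 101 FPKM in CKO libraries and 73.1 to 85.4 FPKM in Flox libraries (log2 fold change 0.28, SE 0.059, limma adjusted p = 0.0923). Zbtb16, which encodes PLZF of innate-like lymphocytes and is also induced by glucocorticoids in other cells, was at 8.91, 1.46, 5.73, 5.67 and 7.56 FPKM in CKO and 1.66, 0.970, 1.52, 1.16 and 0.940 in Flox. CKO replicate 2 lay within the Flox range and the other 4 were above it. The log2 fold change was 1.48 (SE 0.32, limma adjusted p = 0.0962). Without CKO replicate 2, the CKO library within the Flox range, it passed, at 1.82 (limma adjusted p = 0.00339). It passed in no other alternative, and without CKO replicate 1 it was 1.31 (limma adjusted p = 0.133). Zbtb16 was highest in CKO replicate 1, in which 29 of the 33 genes were lowest. Il17rb, a subunit of the interleukin-25 receptor, had 1.93 to 2.93 FPKM in CKO libraries, against 1.41 to 2.16 FPKM in Flox libraries (log2 fold change 0.27, SE 0.096).

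On the lower side, Bcl11b and Skap1 did not overlap between the groups, which was so for 2 of the 72 genes and for 3% of all genes. Bcl11b, a transcription factor of T cell commitment also found in keratinocytes, was at 3.16, 3.38, 2.67, 3.77 and 3.27 FPKM in CKO and 4.12, 4.76, 4.30, 3.89 and 5.06 in Flox. Its log2 fold change was -0.35 (SE 0.082, limma adjusted p = 0.121). Skap1, an adaptor that links the receptor to integrins, was at 2.55, 3.97, 6.10, 6.18 and 3.77 FPKM in CKO and 7.71, 7.12, 6.98, 6.2 and 6.34 in Flox. CKO replicates 3 and 4 lay just under the lowest Flox library, and the log2 fold change was -0.56 (SE 0.18, limma adjusted p = 0.204). Ikzf2, the factor Helios of regulatory T cells, had 0.740 to 1.64 FPKM in CKO libraries, against 1.59 to 2.12 FPKM in Flox libraries (log2 fold change -0.37, SE 0.11).

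**Figure D5:**
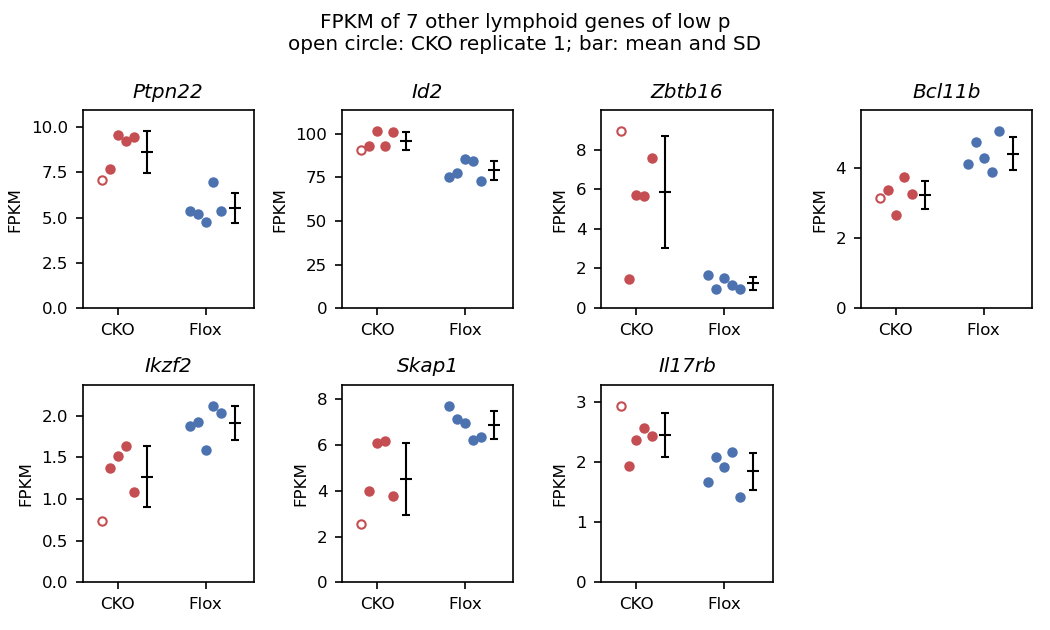
FPKM of 7 other lymphoid genes of low p in each library, CKO left and Flox right; points are libraries (the open circle is CKO replicate 1) and the bar is the mean with its SD (n = 5). Ptpn22, Id2, Bcl11b and Skap1 do not overlap between the groups, and none of the 7 passed adjustment over all genes.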

How the data were processed

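Skin RNA was sequenced from 5 CKO and 5 Flox samples, grouped by their titles. Per the file headers, the deposited values are FPKM, in 1 table with a row per gene. The submitters' processing notes name HISAT as the aligner. The counter, build, annotation and read numbers are unknown here, so no counting interval is given. The series text states another number of samples than the 10 in the labels, which were followed.

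limma-trend (limma 3.58.1, R 4.3.3) was fitted, two-sided, on log2(FPKM + 1) of 13186 genes that reached 1 FPKM in 5 or more libraries, with Benjamini-Hochberg adjustment and a threshold of 0.05. The pseudocount of 1 makes fold changes of low genes too small. The test was checked on simulated data with independent values in each library. No simulated library stood apart as CKO replicate 1 did, so the check does not cover that case. Promoters were taken from RefSeq by gene symbol. All 34 genes are reported, and of the other lymphoid genes the 8 of lowest p, except 1 that is not reported here. The genes and lists were chosen with earlier results of these data known. Alternatives were a pseudocount of 0.1, 2 other filters, equal library totals, quantile normalization, array quality weights, a replicate block and each library left out.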

Additional observations from a re-analysis of the deposited data

Results flagged for a closer look

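Each gene was checked for 1 library of a group of 5 standing apart from the other 4 by more than 0.71 of the range. This was so in 5 of 68 checks of the 34 genes. About 1 in 20 would do so for independent, normally distributed values, and no share over all genes is given here. Of the 5 cases, 4 were in the same library, so the checks are not taken as independent. The count of 5 is therefore not read as an excess. In CKO the case was Thy1 in replicate 1, at 77.05 FPKM. In Flox it was replicate 4 in all 4 cases, with Il2rb at 11.02 FPKM, Gzma at 35.02, Ncr1 at 3.02 and Tcf7 at 6.87. Flox replicate 4 was also the highest of the 10 libraries for 6 of the 33 tested genes, against 7.87% of all genes. It was not alone in this, as CKO replicates 3 and 4 were each highest for 8, against 8.02% and 4.51% of all genes.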

How the results depend on the processing

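None of the 34 genes passed under any alternative run, and the number of reads is unknown. The limits are thus the intervals above, which hold for log2(FPKM + 1) and not for FPKM of low genes. Over all genes, the counts higher and lower in CKO were 1 and 2 with no filter, 2 and 6 with equal library totals, 30 and 60 with array quality weights, and 0 to 11 and 0 to 15 on leaving out a library, with 11 and 15 without CKO replicate 1 and 0 in both directions without Flox replicate 1, 2, 3 or 5. With the replicate number as a block, 0 genes were higher and 0 lower by limma (588 and 1323 at an unadjusted p under 0.05); same-numbered libraries correlated at -0.210 to 0.212, so the numbers were not taken as pairs, and only replicate 5 correlated best with its own number. Of the other lymphoid genes, 1 passed with array quality weights, and 0 to 1 on leaving out a library. Of 561 alternative log2 fold changes of the 33 tested genes, 82 had the opposite sign, and the cause was not tested. With array quality weights these were Cd3e 0.025, Cd3d 0.19, Cd247 0.012, Cd4 0.032, Cd8b1 0.15, Lck 0.12, Thy1 0.011, Il2ra 0.10, Foxp3 0.017, Nkg7 0.023, Gzmb 0.18, Gzmc 0.081, Klrk1 0.22 and Tcf7 0.028. With quantile normalization they were Cd3d 0.032, Il2ra 0.0028 and Tcf7 0.028, with equal totals Cd2 -0.015, and with a pseudocount of 0.1 Cd2 -0.0018, Lag3 -0.0061, Gzma -0.061 and Prf1 -0.067. On leaving out a library, the ranges that crossed 0 were Cd3e -0.23 to 0.0046, Cd3d -0.11 to 0.13, Cd247 -0.20 to 0.023, Cd4 -0.34 to 0.16, Cd8a -0.088 to 0.25, Cd8b1 -0.29 to 0.18, Lck -0.22 to 0.088, Zap70 -0.10 to 0.16, Cd2 -0.12 to 0.15, Cd6 -0.068 to 0.16 and Thy1 -0.16 to 0.020. They were also Il2ra -0.12 to 0.082, Ctla4 -0.054 to 0.12, Lag3 -0.13 to 0.32, Nkg7 -0.38 to 0.071, Gzma -0.36 to 0.79, Gzmb -0.32 to 0.25, Gzmc -0.37 to 0.0033, Prf1 -0.12 to 0.20, Klrk1 -0.20 to 0.29, Rora -0.0067 to 0.16 and Tcf7 -0.074 to 0.060.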
